A study of Mus musculus with 2 samples.

Results

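Mt1, Mt2 and Slc30a1 were followed through the cells of MC38 tumour cultures kept with a control antibody or with an antibody against PD-1. These 3 genes of the 28692 listed in both count matrices were taken by symbol. They were selected on measured values of these libraries, namely their levels, their spread over cells, their link to hypoxia genes and the difference between the antibodies, so all of these are given as a description. MC38 is a mouse colon carcinoma line, here of C57BL/6 albino background. Tumour tissue was dissociated, embedded in collagen and grown for 6 days in a microfluidic culture chip. One culture arm received IgG (clone 2A3) and the other aPD-1 (clone RMP1-14), which blocks the inhibitory receptor PD-1 of T cells, each at 10 µg/mL. Tumour cells were then isolated by flow cytometry and sequenced with the 10x 3′ chemistry, with 1 library for each antibody, and the series states its aim as profiling the tumour cells left after PD-1 blockade.

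Metallothioneins are small cysteine-rich proteins that bind zinc and copper in the cytoplasm, and Mt1 and Mt2 are the forms made in most mouse tissues. Slc30a1 (ZnT1) carries zinc out of the cell across the plasma membrane. All of them are classical targets of the zinc-sensing factor Mtf1, which binds metal response elements in their promoters, and metallothioneins are also known to be induced by hypoxia, glucocorticoids and oxidative stress.

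A cell was a barcode with at least 5000 unique molecular identifiers (UMIs, each standing for 1 captured transcript) and at most 10% of them from mitochondrial genes. This left 2198 cells in IgG (median depth 20663 UMIs) and 3356 in aPD-1 (median depth 16577). The libraries shared 8 cell barcodes, 0.364% of the IgG cells and 0.238% of the aPD-1 cells. Markers of other cell types differed between the libraries: the 10 macrophage markers summed to 30.9 CPM (UMIs scaled to the same total in each library) in IgG and 5.42 in aPD-1, the 7 endothelial markers to 55.1 and 20.4, and the 8 fibroblast markers to 962 and 654. Cd3e of T cells was at 0 in both, and the 5 epithelial markers summed to 0.344 and 0.114 CPM, although MC38 is a colon carcinoma line. With 1 library for each antibody there was no replicate, so no test was made. Intervals are 95% intervals for counting error only, of UMIs or, for shares of cells, of cells. The antibody cannot be told apart from culture, sorting or loading.

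Mt1 and Mt2 are neighbours on chromosome 8. In the GENCODE M21 annotation of GRCm38 (mm10), Mt2 (ENSMUSG00000031762) runs from 94172664 to 94173568 and Mt1 (ENSMUSG00000031765) from 94179082 to 94180327, both on the plus strand and with 3 exons each, and 5513 bases lie between them. Slc30a1 (ENSMUSG00000037434) lies on the plus strand of chromosome 1 from 191906767 to 191913247 and has 2 exons. Mt2 overlaps Gm45774 and Slc30a1 overlaps 1700034H15Rik, both on the other strand. The longest run of bases shared by the main Mt1 and Mt2 transcripts was 20 bases, and 10 bases within the last 100 of each. Where the reads fall along these transcripts was not examined.

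The promoters are shown because all members are textbook targets of the same zinc sensor. These are the 250 bases before each RefSeq start on GRCm38.p6, plus strand, from 5′ to 3′, with matches to the metal response element core (TGCACNC or TGCGCNC on either strand) in capitals. The windows are chr8:94178839-94179088 for Mt1, chr8:94172368-94172617 for Mt2 and chr1:191906531-191906780 for Slc30a1.
Mt1: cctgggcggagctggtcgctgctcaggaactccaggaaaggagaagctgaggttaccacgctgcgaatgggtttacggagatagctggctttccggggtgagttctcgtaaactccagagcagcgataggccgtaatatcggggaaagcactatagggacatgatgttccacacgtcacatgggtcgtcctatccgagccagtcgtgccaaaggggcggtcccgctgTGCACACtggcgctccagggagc
Mt2: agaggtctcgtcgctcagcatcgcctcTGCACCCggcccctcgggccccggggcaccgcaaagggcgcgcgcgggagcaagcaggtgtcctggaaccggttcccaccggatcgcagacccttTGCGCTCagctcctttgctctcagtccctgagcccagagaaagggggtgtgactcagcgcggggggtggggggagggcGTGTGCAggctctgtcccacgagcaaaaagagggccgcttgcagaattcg
Slc30a1: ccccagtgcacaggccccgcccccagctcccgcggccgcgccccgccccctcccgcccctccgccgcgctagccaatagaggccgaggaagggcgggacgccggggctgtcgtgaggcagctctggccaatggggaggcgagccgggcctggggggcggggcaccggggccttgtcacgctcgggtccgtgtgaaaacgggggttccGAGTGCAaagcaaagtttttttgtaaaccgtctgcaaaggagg

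The search window also took in the first 50 bases from each RefSeq start on, which are not printed. RefSeq starts differ from the GENCODE starts given above: for Mt2 the printed window ends at 94172617, and GENCODE starts at 94172664. Positions here are counted from the RefSeq start. The search window held 4 matches to the metal response core for Mt2, 3 for Mt1 and 2 for Slc30a1. At least 1 match stood in 25.7% of the 32851 RefSeq promoter windows of this length, at least 2 in 7.11%, at least 3 in 1.97% and at least 4 in 0.517%. In Mt1 the printed match lies 23 to 17 bases before the start, and the other two lie just after it. In Mt2 matches lie 223 to 217, 128 to 122 and 50 to 44 bases before the start. In Slc30a1 the printed match lies 43 to 37 bases before the start. The hypoxia response core (ACGTG or GCGTG on either strand) was found 2 times for Mt1, 2 times for Mt2 and 1 time for Slc30a1. At least 1 such match stood in 43.8% of all windows and at least 2 in 20.6%. One of those in Mt2, at 52 to 48 bases before the start, overlaps a metal response match. A match shows that these letters are present and not that a factor was bound.

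Both metallothioneins were among the most abundant transcripts of the cells, and the exporter was rare. A UMI marks the 3′ end of a transcript, so CPM counts molecules and was not scaled by gene length. Mt1 gave 62721 UMIs in IgG cells, 1269 CPM (1259 to 1279), and 83103 UMIs in aPD-1 cells, 1352 CPM (1343 to 1361). It ranked 126th and 119th among all genes. Mt2 gave 39378 UMIs in IgG, 797 CPM (789 to 805), and 44423 in aPD-1, 723 CPM (716 to 730), and ranked 173rd and 177th. Slc30a1 gave 199 UMIs in IgG, 4.03 CPM (3.49 to 4.63), and 211 in aPD-1, 3.43 CPM (2.99 to 3.93), and ranked 9268th and 9353rd. The order Mt1, Mt2, Slc30a1 held in both libraries, with intervals that did not overlap between genes.

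A UMI of Mt1 was seen in 94.5% of IgG cells and 95.6% of aPD-1 cells, and one of Mt2 in 84.3% and 83.4%. Slc30a1 was seen in 8.14% and 5.93%. Because depth differed, every cell was also thinned to 5000 UMIs, which left out no cell. The share with Mt1 was then 78.5% (76.7 to 80.2) in IgG and 83.3% (82.0 to 84.5) in aPD-1, and that with Mt2 was 62.4% (60.4 to 64.5) and 63.6% (62.0 to 65.2). For Slc30a1 it was 2.23% (1.65 to 2.94) and 1.88% (1.45 to 2.40). The intervals of the thinned share were thus apart for Mt1, with the higher share in aPD-1, and overlapped for Mt2 and for Slc30a1. They cover only the sampling of cells within each library, and cells of 1 library are not replicates of an antibody. Free RNA carried both metallothioneins: 515790 aPD-1 barcodes of 1 to 99 UMIs, with a median of 2, held 0.0104 Mt1 UMIs and 0.00559 Mt2 UMIs per barcode, and 3592 larger barcodes with a median of 160 UMIs held 0.151 and 0.0674. The IgG matrix lists no barcodes of these sizes, so that background was measured in aPD-1 only.

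The level varied widely from cell to cell. In IgG cells, Mt1 was at 0.630 counts per 10000 UMIs at the 10th percentile, 5.54 at the median, 35.3 at the 90th percentile and 242 in the highest cell. In aPD-1 cells the same points were 0.911, 6.59, 36.3 and 411. The 90th percentile was therefore 56.1 times the 10th in IgG and 39.8 times in aPD-1. Mt2 had a median of 2.31 and a 90th percentile of 23.0 in IgG, and 2.20 and 22.9 in aPD-1, with highest cells of 197 and 284.

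The variance over the mean of thinned counts (the Fano factor, near 1 for counts that vary by sampling alone) was high for both metallothioneins. It was 21.2 for Mt1 in IgG, rank 7 of 7073 genes, and 22.1 in aPD-1, rank 2 of 6849. For Mt2 it was 18.0 (rank 9) and 15.5 (rank 6), beside a median of 1.06 in each library. Ranks and median cover the genes of at least 10 CPM in that library. Slc30a1, itself under that floor, stood at 1.06 and 1.04, near the median. The Fano factor grows with the level, and these ranks are not adjusted for it. A measure that takes out the level, the variance beyond sampling noise over the squared mean, was 2.98 for Mt1 in IgG (rank 209) and 2.82 in aPD-1 (rank 173). For Mt2 it was 3.89 (rank 149) and 3.59 (rank 122). For Slc30a1, placed among those genes though under their floor, it was 2.38 (rank 277) and 2.18 (rank 240), from few UMIs. The order of Mt1 and Mt2 thus depended on the measure. After thinning, only 49 IgG cells and 63 aPD-1 cells held a UMI of Slc30a1, with at most 2 in a cell. Its spread relative to its level therefore could not be set beside that of Mt1.

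**Figure D1:**
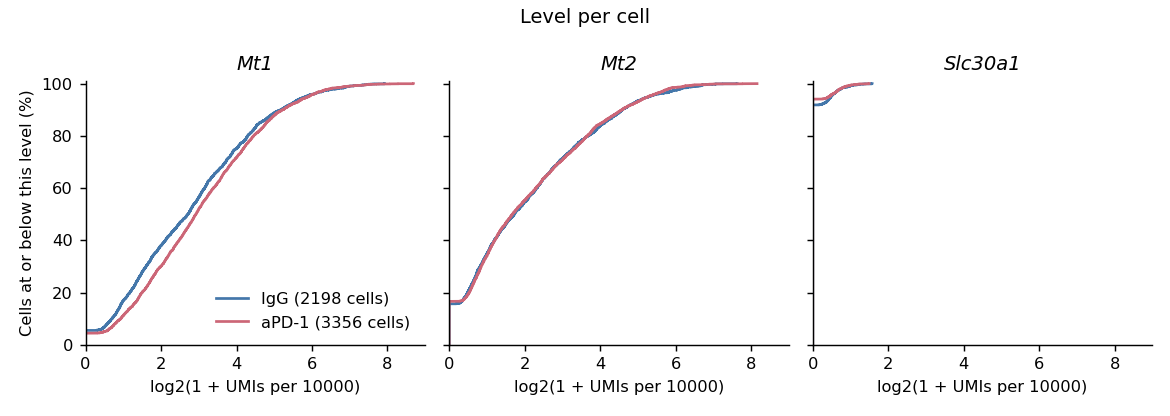
Spread over cells of Mt1, Mt2 and Slc30a1 in the IgG and aPD-1 libraries, in counts per 10000 UMIs. Mt1 has medians of 5.54 and 6.59 and runs up to 242 and 411, whereas most cells have no UMI of Slc30a1.

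The metallothioneins varied together across cells. Mt1 and Mt2 had a Pearson correlation of 0.86 over 2198 IgG cells and 0.83 over 3356 aPD-1 cells, on log2(1 + counts per 10000). After thinning it was 0.76 and 0.73, and the Spearman correlations were 0.82 and 0.80. Within each of 5 clusters with at least 100 cells of each library, it lay between 0.79 and 0.91 in IgG and between 0.74 and 0.85 in aPD-1. Cells of a library share their preparation and differ in depth. Log depth had a correlation of -0.04 with Mt1 in IgG and of -0.09 in aPD-1.

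A few cells held much of the transcript. The 219 IgG cells highest in Mt2, and the 335 such cells in aPD-1, held 47.6% and 44.0% of the Mt1 UMIs left after thinning. The 1099 IgG cells lowest in Mt2 held 12.6% of these thinned Mt1 UMIs, and the 1678 lowest aPD-1 cells 14.6%. After thinning, 56.3% of IgG cells and 58.6% of aPD-1 cells had both transcripts, and 15.4% and 11.7% had neither. If detection of Mt1 and of Mt2 were independent, 49.0% and 53.0% would have both, and 8.07% and 6.08% neither. By the shares of thinned UMIs held, Mt1 and Mt2 were high in the same cells.

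**Figure D2:**
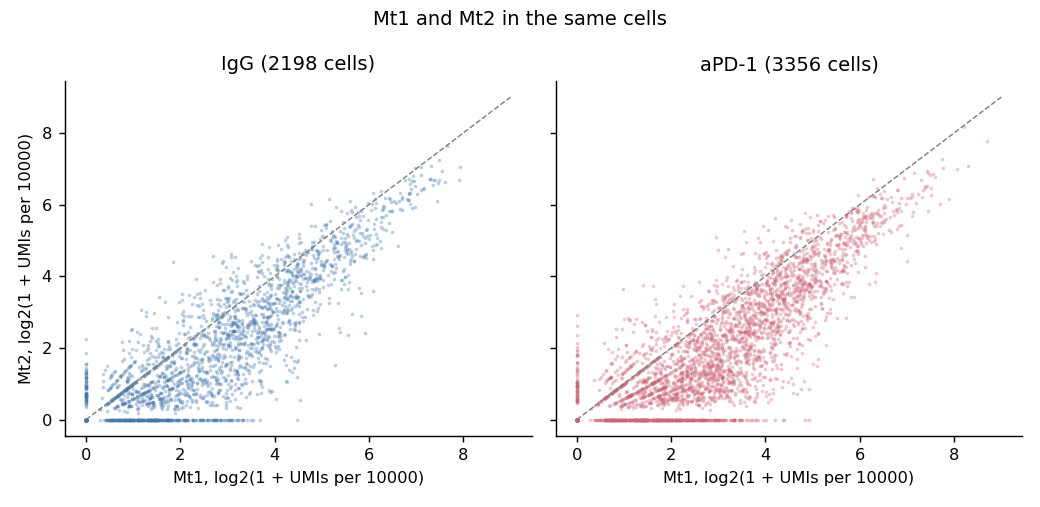
Mt2 against Mt1 in single cells of the IgG library and of the aPD-1 library, each on a log2(1 + counts per 10000 UMIs) scale, 1 point for each cell. Cells lie along a rising diagonal in both libraries, with Pearson r of 0.86 and 0.83.

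Slc30a1 showed no clear link to them. Its correlation with Mt1 was 0.02 in IgG and 0.01 in aPD-1, and with Mt2 0.00 and 0.01. Cells were also put into 5 equal groups by their summed Mt1 and Mt2, from lowest to highest. Slc30a1 then ran 3.64, 3.85, 3.60, 3.65 and 5.57 CPM in IgG and 2.89, 3.03, 3.22, 4.19 and 3.94 CPM in aPD-1. Its highest values stood in the upper groups in both libraries, with intervals that overlapped across groups. Over the same groups Mt1 went from 73.4 to 4578 CPM in IgG and from 103 to 4663 in aPD-1. Mtf1, the zinc sensor, stayed between 15.3 and 18.4 CPM in IgG and between 19.0 and 23.1 in aPD-1. At about 200 UMIs of Slc30a1 for each library, a weak link would not be detectable at this depth.

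The genes closest to Mt1 across cells were mainly hypoxia genes. After Mt2 came Ero1l, an oxidase of the endoplasmic reticulum, with r of 0.50 in IgG and 0.46 in aPD-1. Lgals3, galectin 3, had 0.47 and 0.42, and Ndrg1, a stress gene induced by hypoxia, 0.41 and 0.40. Ftl1, the light chain of the iron store ferritin, had 0.39 and 0.46, and Bnip3, a mitophagy receptor, 0.45 and 0.37. Snhg6, a small nucleolar RNA host gene, had 0.33 and 0.32, and Ankrd37, a target of the hypoxia factor, 0.39 and 0.31. These were the 7 genes of 6520 with r above 0.3 in both libraries, apart from Mt2, and 4 of them belong to the hypoxia list. Over all 6520 genes the median r with Mt1 was -0.04 in both libraries.

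The genes nearest to Mt2 were almost the same: Lgals3 with 0.49 and 0.46, Ero1l with 0.48 and 0.43, Ndrg1 with 0.40 and 0.38, Ftl1 with 0.36 and 0.42, Bnip3 with 0.41 and 0.33, Snhg6 with 0.31 and 0.31, and Car9, a carbonic anhydrase of hypoxic cells, with 0.32 and 0.29. These genes were picked for their correlation in the same cells, so their levels describe its size and do not support it. Ero1l ran from 92.0 CPM in the IgG cells lowest in Mt1 and Mt2 to 684 in the highest, and from 107 to 590 in aPD-1. Lgals3 ran from 523 to 3070 CPM in IgG and from 743 to 2999 in aPD-1. Ftl1 ran from 1818 to 3777 and from 2128 to 5710, Bnip3 from 59.4 to 299 and from 73.0 to 272.

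At the other end stood genes of other functions. Psmb10, an immunoproteasome subunit, had r with Mt1 of -0.32 in IgG and -0.33 in aPD-1, and ran from 610 to 348 CPM and from 514 to 265 CPM from the cells lowest to those highest in metallothionein. Hmgb1, a chromatin protein, had -0.29 and -0.31, Hnrnpa2b1, an RNA-binding protein, -0.29 and -0.29, and Pfn1, profilin, -0.29 and -0.28. For Mt2 the lowest also included Atox1, the copper chaperone of the secretory pathway, with -0.27 and -0.28, and Hmgn2, a nucleosome-binding protein, with -0.27 and -0.27. CPM are shares of a cell's transcripts, so a rise of some genes lowers the others.

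**Figure D3:**
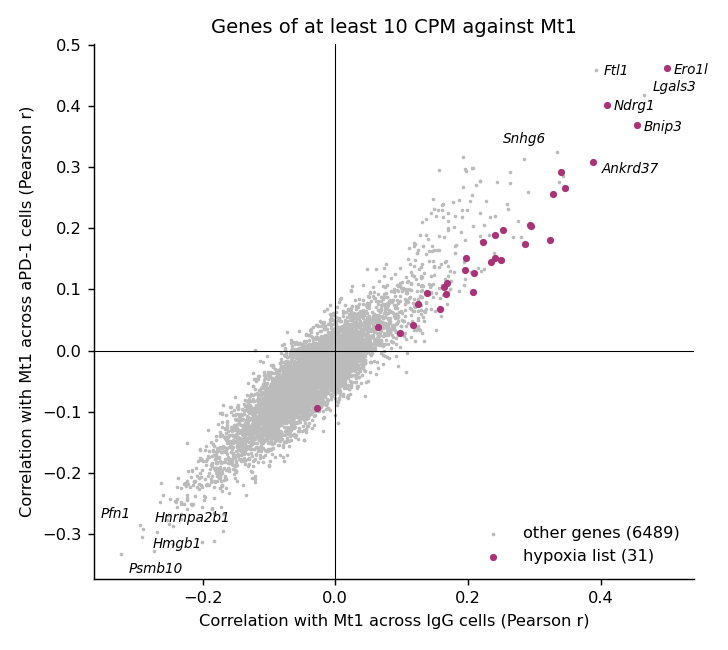
Pearson correlation with Mt1 across IgG cells (horizontal) and aPD-1 cells (vertical) for 6520 genes of at least 10 CPM, 1 point for each gene, with the 31 hypoxia genes coloured. Ero1l, Lgals3, Ndrg1, Ftl1 and Bnip3 stand at the upper right, and 30 of the 31 hypoxia genes lie above 0 on both axes.

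No gene went with Slc30a1 in this way. The highest in both libraries was Rela, a subunit of NF-kB, with r of 0.06 in each, and no gene of 6520 exceeded 0.2 in both. The lowest was Gmnn, an inhibitor of replication licensing, with -0.08 and -0.06. With counts this sparse such values are no finding.

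The hypoxia list holds 33 genes, of which 31 reached 10 CPM in both libraries. Its summed level had a correlation with Mt1 of 0.39 in IgG and 0.32 in aPD-1, with Mt2 of 0.37 and 0.30, and with Slc30a1 of -0.02 and -0.04. Taken singly, 30 of the 31 genes had an r with Mt1 above 0 in both libraries, beside 16.7% of all 6520 genes, and the same number did so with Mt2, beside 17.0%. The exception was Bhlhe40, a repressor of transcription, with -0.03 and -0.09. The median of the 31 genes with Mt1 was 0.23 in IgG and 0.15 in aPD-1. Higd1a, a mitochondrial protein, had 0.35 and 0.27, Car9 0.34 and 0.29, and the glycolytic enzyme Aldoa 0.32 and 0.18, whereas the angiogenic factor Vegfa had 0.13 and 0.08. Without the 11 glycolysis enzymes the list's correlation with Mt1 was 0.45 and 0.39.

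Cells with more hypoxia transcripts had more metallothionein transcripts. With cells in 5 equal groups by summed hypoxia genes, from lowest to highest, Mt1 ran 603, 685, 1020, 1444 and 2534 CPM in IgG and 685, 959, 1283, 1782 and 2093 CPM in aPD-1. Mt2 ran 335, 406, 629, 913 and 1659 CPM in IgG and 311.5, 486, 689.5, 985 and 1167 CPM in aPD-1. Every step went up in both libraries for both genes. The top group stood above the bottom one by 4.20 times for Mt1 in IgG and 3.06 times in aPD-1, and for Mt2 by 4.95 and 3.75 times. Slc30a1 was 4.67, 3.23, 4.27, 3.76 and 4.27 CPM in IgG and 3.95, 3.89, 3.55, 2.99 and 2.73 CPM in aPD-1, with overlapping intervals.

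**Figure D4:**
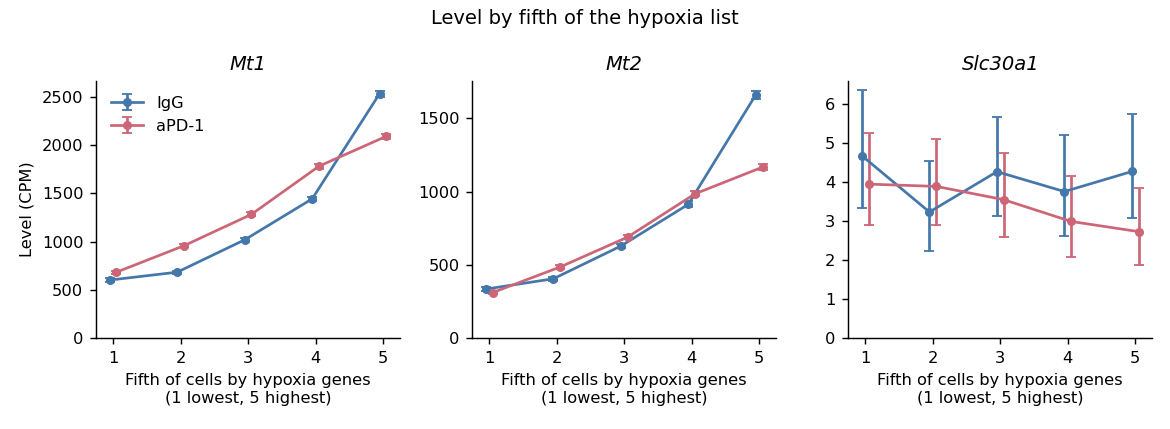
Mt1, Mt2 and Slc30a1 in CPM in 5 equal groups of cells ordered by their summed hypoxia genes, for IgG and aPD-1, with exact Poisson intervals for counting error. Mt1 goes from 603 to 2534 CPM in IgG and from 685 to 2093 in aPD-1, and Slc30a1 stays between 2.73 and 4.67.

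Other stress and hormone programmes gave values near or below 0. The glucocorticoid response list had an r with Mt1 of -0.10 in IgG and -0.09 in aPD-1, the ATF4 and unfolded protein list -0.02 and -0.02, and the heat shock list -0.08 and -0.13. Most of the glucocorticoid sum was Nfkbia, with 1074 of 1765 CPM in IgG and 925 of 1563 in aPD-1, and its own r was -0.14 and -0.15. Of the 7 genes of that list above the floor, 2 had an r above 0 in IgG and 3 in aPD-1, among them Klf9 with 0.05 and 0.10. The list of NRF2 targets, the oxidative stress programme, had 0.01 and -0.03, although Hmox1, the haem oxygenase in it, had 0.17 and 0.14. The immediate early list had 0.00 and -0.02, with Ier3 at 0.23 and 0.24.

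The clusters of cells gave the same picture. They were computed without the 3 members, but with the genes that go with them. Cluster 2, led by Car6, Car9 and Ero1l, held 12.7% of IgG cells and 23.7% of aPD-1 cells. Its Mt1 was 3817 CPM in IgG and 3020 in aPD-1, and its Mt2 2667 and 1749.5. In the other large clusters Mt1 lay between 740 and 1086 CPM in IgG and between 746 and 1137 in aPD-1. The lowest of these was cluster 1, led by the mitosis genes Cdc20, Hmmr and Cenpa, with Mt1 at 740 and 746 CPM. Cluster 2 was thus above every other large cluster in both libraries. It held 2.50% of the IgG cells lowest in Mt1 and Mt2 and 38.0% of the highest, and 4.17% and 57.4% in aPD-1. Within the 5 clusters the hypoxia list still had an r with Mt1 of 0.19 to 0.38 in IgG and 0.10 to 0.31 in aPD-1.

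The study's contrast is aPD-1 against IgG. Over all cells the ratio of aPD-1 to IgG was 1.07 for Mt1 (1.05 to 1.08), 0.907 for Mt2 (0.895 to 0.920) and 0.853 for Slc30a1 (0.699 to 1.04). On the log2 scale these are 0.09, -0.14 and -0.23. Of the 3 members, 2 passed the floor of 10 CPM (mean of both libraries), and neither was at least 1.5-fold apart, where 3.55% of the 6967 genes tested were (0.531% higher and 3.01% lower). The median log2 ratio of all those genes was -0.10, and their central 95% ran from -0.61 to 0.37. The ratio of Mt1 was above that of 80.4% of them and the ratio of Mt2 above that of 43.0%. Slc30a1 was under the floor, and its interval includes 1. Summed, Mt1 and Mt2 made up 2066 CPM in IgG and 2075 in aPD-1.

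The small pooled differences depended on which cells were set side by side. Within clusters, Mt1 in aPD-1 was 0.835, 1.01, 0.791, 0.943 and 1.06 times IgG in clusters 0 to 4, so it was higher in 2 of the 5, 1 of them with an interval above 1, and lower in 3. The mean of the 5 log2 ratios was -0.12, of the opposite sign to the pooled value. Mt2 was 0.779, 0.730, 0.656, 0.920 and 0.894 times IgG, lower in 5 of 5 with every interval below 1. Slc30a1 was between 0.831 and 1.004 times IgG, and every interval included 1. Cluster 2, where metallothioneins were highest, made up a larger share of the aPD-1 cells, and without it the log2 ratio of Mt1 was -0.010 (-0.030 to 0.0090), which is not distinct from 0, and that of Mt2 -0.26. The full hypoxia list ordered the libraries the other way, with a summed level of 8449 CPM in IgG and 7441 in aPD-1. In 5 groups of cells with the same limits for both, the highest held 24.3% of IgG cells and 17.2% of aPD-1 cells. Without the glycolysis enzymes the sums were 2951 and 2810 CPM, a log2 ratio of -0.07 beside the median of -0.10 for all genes. The highest common group by that shorter list held 19.9% of IgG cells and 20.1% of aPD-1 cells, so this difference rested on the glycolysis enzymes.

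Cells matched by hypoxia genes gave another order. In the 5 common groups by the full list, Mt1 in aPD-1 was 1.14, 1.45, 1.33 and 1.35 times IgG in the 4 lower groups and 0.900 times in the highest. Mt2 was 0.955, 1.23, 1.17, 1.17 and 0.782 times IgG. Without the glycolysis enzymes in the list, Mt1 was 1.08, 1.37, 1.15, 1.18 and 0.941 times IgG, and Mt2 was 0.831, 1.14, 0.949, 1.07 and 0.816 times. The direction for either gene therefore changed with the cells compared. The markers of macrophages, endothelial cells and fibroblasts were also lower in aPD-1, as given above. Their part in the ratios was not tested: the macrophage-like cluster held only 2 IgG cells and no aPD-1 cell of this depth, and the cluster led by Igfbp3, Fabp4, Gpihbp1, Emcn and Esam 23 and 4, so leaving them out changes little by its construction.

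The balance between Mt1 and Mt2 also differed. The ratio of Mt1 to Mt2 was 1.59 (1.57 to 1.61) in IgG and 1.87 (1.85 to 1.89) in aPD-1. It was higher in aPD-1 in each of the 5 large clusters, where it ran from 1.43 to 1.84 in IgG and from 1.52 to 2.30 in aPD-1. The intervals were apart in 4 of the 5 clusters and overlapped in cluster 3, with 1.48 in IgG and 1.52 in aPD-1. The size of the shift varied, from 1.02 times in cluster 3 to 1.38 times in cluster 1. A ratio within a library does not rest on the scaling of the libraries, but this one too comes from 1 library of each kind.

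**Figure D5:**
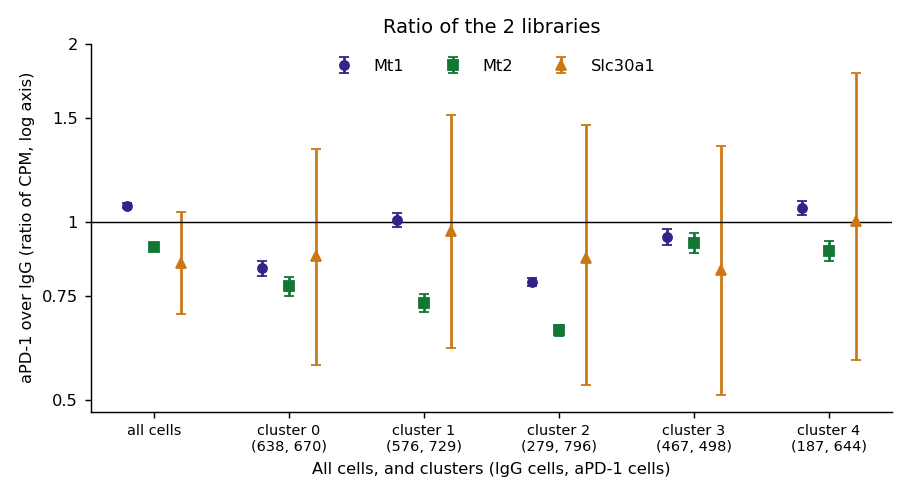
Ratio of aPD-1 to IgG for Mt1, Mt2 and Slc30a1 over all cells and within each of the 5 large clusters, on a log axis, with exact 95% intervals for counting error. Mt2 is below 1 in all 5 clusters, Mt1 lies on either side of 1, and every interval of Slc30a1 within a cluster includes 1.

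Of the 10 zinc exporters, 4 passed the floor, and none was at least 1.5-fold apart, beside the 3.55% of all genes given above. For so few genes this count says nothing about the list. The interval excluded 1 for 3 of the 4, 1 higher and 2 lower in aPD-1. The share of all genes whose interval excluded 1 was not computed. Only 32.9% of the 6967 genes tested had a ratio above 1, so most leaned lower in aPD-1. Slc30a4, which loads zinc into vesicles, was 11.3 CPM in IgG and 15.6 in aPD-1, a ratio of 1.38 (1.24 to 1.54). Slc30a5 and Slc30a7, which supply zinc to the secretory pathway, had ratios of 0.857 and 0.845, and Slc30a9 had 1.06. No UMI of Slc30a3, Slc30a8 or Slc30a10 was seen. Slc30a1 was under the floor, so the filter itself places it below the 4 that passed. Of the other exporters under the floor with UMIs, Slc30a6 was more abundant than Slc30a1, at 8.94 CPM in IgG and 6.39 in aPD-1. Slc30a2 was less abundant, at 0.182 and 0.439 CPM.

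Of the 14 zinc importers, 6 passed the floor, none was 1.5-fold apart, and the interval of 3 lay below 1. With most genes lower in aPD-1, these counts are not read as a result about the list. Slc39a1, an importer of the plasma membrane, was 99.8 CPM in IgG and 74.4 in aPD-1, a ratio of 0.745 (0.716 to 0.776). Slc39a7, which releases zinc from the endoplasmic reticulum, was 71.6 and 63.2 CPM, and Slc39a6 was 40.8 and 35.4. The median log2 ratio was -0.16 for the importers and -0.07 for the exporters, beside -0.10 for all genes. Mtf1 was 16.8 CPM in IgG and 20.5 in aPD-1, a ratio of 1.22 (1.12 to 1.34), and its r with Mt1 was 0.00 and 0.02. The other metallothioneins were all but absent, with 0 and 1 UMIs of Mt3 and 5 and 9 of Mt4.

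Of the 10 copper genes, 6 passed the floor, none was 1.5-fold apart, and the interval of 5 lay below 1. Their median log2 ratio was -0.22, beside -0.10 for all genes, of which only 32.9% had a ratio above 1. The share of all genes with an interval below 1 was not computed, so the counts are not read as a result about copper genes. Atox1 was 995 CPM in IgG and 882 in aPD-1, a ratio of 0.886 (0.875 to 0.897). Unlike the hypoxia genes it ran against the metallothioneins, from 1202 CPM in the IgG cells lowest in Mt1 and Mt2 to 802 in the highest, and from 1028 to 707 in aPD-1. Cox17, the copper chaperone of cytochrome oxidase, was 220 CPM and 162, a ratio of 0.735 (0.715 to 0.755). Sod1, the copper and zinc superoxide dismutase, was 145 and 125 CPM, and Slc31a1, the copper importer, 45.6 and 37.3.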

How the data were processed

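The deposited values are raw UMI counts. Per the file headers they came from Cell Ranger 3.0.2, and mm10 and Seurat 2.1.0 also stand in the submitters' processing notes. Their gene annotation was not given in those sources. The IgG matrix lists 4351 barcodes and the aPD-1 matrix all 737280, with 52720076 and 68385785 UMIs. The same floor of 5000 UMIs and limit of 10% mitochondrial UMIs were set for both.

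Counts were summed over cells into CPM, with exact Poisson intervals. Ratios have exact conditional binomial intervals and shares exact Clopper-Pearson intervals, at 95%. UMIs are counted once per molecule. Correlations are across cells, on log2(1 + counts per 10000), with no p. The rule for a call was a mean of 10 CPM or more, a ratio of 1.5-fold or more in either direction and an interval without 1. The genes named are, for each member, the 8 highest and 4 lowest by the correlation that held in both libraries (mitochondrial genes and unnamed models left out), zinc and copper genes, and up to 4 genes of each other list. Aldoa, Higd1a, Vegfa, Bhlhe40 and Nfkbia are named outside it, chosen after their values were seen. The members and lists were chosen with earlier results of these data known.

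Cells of at least 1000 UMIs and 500 genes were clustered in scanpy 1.11.5 without integration (2000 variable genes without the members, 30 components, 15 neighbours, leidenalg 0.10.2 at resolution 0.5). Cell type names needed at least 3 markers among the 10 top genes of a cluster, a count set after the clusters had been seen. Of 5554 cells scrublet marked only 11 (0.198%), which is not a working call, and doublets were left in. The steps were tested on simulated counts. Promoters are from the RefSeq table of GRCm38.p6, in which all 3 members were found.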

Additional observations from a re-analysis of the deposited data

Results flagged for a closer look

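Metallothionein transcripts were also present in barcodes that the comparisons left out. In the aPD-1 library, 515790 barcodes of 1 to 99 UMIs held Mt1 at 1264 CPM and Mt2 at 681 CPM, beside 1352 and 723 CPM in its cells. In 3592 larger barcodes, with a median of 160 UMIs, Mt1 was lower at 783 CPM and Mt2 at 350.3 CPM. In IgG, 1263 barcodes with over 50% mitochondrial UMIs held Mt1 at 245 CPM and Mt2 at 154 CPM. In aPD-1, 521 such barcodes held Mt1 at 154 CPM and Mt2 at 121 CPM. No UMI of Slc30a1 was seen in either set, at 2.80 CPM and 7.69 CPM as the upper limits of the intervals.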

How the results depend on the processing

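No paired analysis was possible because each antibody had 1 library. The log2 ratio of Mt1, 0.09 over all cells, reversed as the mean over 5 clusters (-0.12) and was not distinct from 0 without the cluster led by Car9 and Ero1l (-0.010, interval -0.030 to 0.0090). It moved beyond its counting interval with a floor of 10000 UMIs (0.063), with at most 5% mitochondrial UMIs (0.055), with every cell weighted equally (0.13), without ribosomal protein UMIs in the denominator (0.18), centred on the median gene (0.19) and without the top 1% of cells (0.12). For Mt2, -0.14 over all cells, the same settings gave -0.17, -0.17, -0.082, -0.056, -0.039 and -0.12, and -0.34 and -0.26 for the first and second cluster settings, so it kept its sign. Slc30a1 ran from -0.35 to -0.13 over 12 alternatives and stayed within counting error of its value. The correlation of Mt1 with Mt2 ran from 0.76 to 0.86 in IgG and from 0.73 to 0.84 in aPD-1. That with the hypoxia list moved by more than 0.1 only in aPD-1 without the cluster led by Car9 and Ero1l, to 0.19 for Mt1 and 0.18 for Mt2. The genes called were 247 (37 higher, 210 lower), 175 when centred (73 and 102), 260 with a floor of 1000 UMIs and 820 with a floor of 1 CPM (144 and 676). The settings that leave out or average the large clusters were chosen after seeing the data. Slc30a1 rests on 199 and 211 UMIs, so counting error alone leaves its ratio anywhere from 0.699 to 1.04.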

Other observations

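Cell cycle genes ran against the metallothioneins. The summed list of G2 and mitosis genes had an r with Mt1 of -0.18 in IgG and -0.19 in aPD-1. None of its 12 genes had an r above 0 in either library. Of all 6520 genes, however, only 16.7% were above 0 in both, with a median r of -0.04 in each. The share of all genes at or below 0 in both, the like measure for that count, was not computed. The count of list genes is therefore not read as a result. Mt1 ran from 1631 CPM in the IgG cells lowest in this list to 874 in the highest, and from 1995 to 916 in aPD-1. With cells ordered by S phase genes it ran from 1932 to 749 CPM in IgG and from 2107 to 1018 in aPD-1. The list of fibroblast markers had an r with Mt1 of -0.19 in both libraries, and the type I interferon list -0.15 and -0.14.

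Slc30a1 was highest by CPM in cells that were not the bulk of the sort, a pattern chosen after its values were seen. At a floor of 1000 UMIs, the 125 macrophage-like IgG cells held 7 of its UMIs, 31.9 CPM (12.8 to 65.8), with a median of 1268 UMIs per cell. Of those UMIs, 3 came from the 2 cells with at least 5000 UMIs, so the level was not spread evenly over the cluster. The 27 IgG cells of the cluster led by Igfbp3, Emcn and Esam held 6, 18.7 CPM (6.88 to 40.8), and Mt1 there was 150 CPM (111 to 199). In the 5 large clusters of IgG, Slc30a1 lay between 2.77 and 4.99 CPM. The aPD-1 library had 4 and 5 cells of these clusters and no UMI of Slc30a1 in them.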
